A study of Homo sapiens with 4 samples.

Results

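Myeloid granule proteins and lysozyme were followed in RNA-seq libraries of MV4-11 cells, a human AML cell line that carries a KMT2A::AFF1 fusion and an internal tandem duplication of FLT3. The control group (NC) had 2 libraries and the ANP32B knockdown group (sh-ANP32B) had 2 libraries. For NC the shRNA entry of the labels reads none, whereas the methods of the study describe a control hairpin, and the knockdown cells carried a lentiviral shRNA to ANP32B, selected with puromycin. The table names both knockdown columns S3, which was read as 1 of the 3 hairpins of the study, whereas the labels number the samples sh-ANP32B-1 and sh-ANP32B-2. Should these numbers stand for hairpins, the libraries would be different hairpins and not replicates of 1, which the sources used here do not settle. If the NC cells carried no vector, transduction and selection cannot be told apart from the loss of ANP32B. Both groups are one cell line, and the labels do not say whether the libraries of a group came from separate cultures, so the spread between them may be technical. The 10 genes were LYZ, CFD, MPO, ELANE, PRTN3, AZU1, CTSG, RNASE2, SERPINB1 and SRGN. They were picked by name, with their differences between these groups already known, so every difference given for them is a description and not a test. A row was found for 9 of the 10 symbols, out of 18885 genes in all, and MPO was not analysed here. Rows whose identifier had no symbol could not be matched to these genes, so further entries of them may have been missed. All 9 passed the limit for testing, 1 TPM or more in 2 or more libraries.

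Granule proteins are made by immature myeloid cells, packed into membrane-bound granules and stored for killing and digesting microbes. Azurophil granules, the earliest to form, hold myeloperoxidase (MPO) and the serine protease family of ELANE, PRTN3, CTSG and AZU1. SRGN is the proteoglycan core on which such cationic proteins are stored, SERPINB1 is a cytosolic inhibitor of these proteases, and RNASE2 is the eosinophil-derived neurotoxin, an RNase. LYZ (lysozyme) cleaves bacterial cell walls and is made in large amount by monocytes and macrophages. CFD (complement factor D, or adipsin) is the serine protease that cleaves factor B in the alternative complement pathway.

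AZU1, PRTN3, ELANE and CFD are neighbours on the plus strand of chromosome 19 and belong to one protease family. In hg38 with GENCODE version 44, AZU1 lies from 825097 to 832018, PRTN3 from 840999 to 848175, ELANE from 851014 to 856247 and CFD from 859453 to 867884. The 4 genes span 42788 bases, with gaps of 8980 bases between AZU1 and PRTN3, 2838 bases between PRTN3 and ELANE, and 3205 bases between ELANE and CFD. CTSG lies on chromosome 14 from 24573518 to 24576250 on the minus strand, and RNASE2 on the same chromosome from 20955487 to 20956436 on the plus strand. LYZ lies on chromosome 12 from 69348381 to 69354234, SRGN on chromosome 10 from 69088103 to 69104805, and SERPINB1 on chromosome 6 from 2832332 to 2841959.

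RefSeq promoters (GRCh38.p14, 250 bases before to 50 after the start) were matched for 6 of the 10 symbols. The entries of LYZ, MPO, ELANE and SRGN were missing. Those of the 3 neighbours AZU1, PRTN3 and CFD are shown because these genes lie side by side and differed in response, and CTSG is shown as a protease gene from another chromosome. Capitals mark GAGGAA (the core bound by PU.1) and TTNNGNAA (a core of C/EBP sites), read on both strands.
AZU1 (chr19:827587-827886, plus strand): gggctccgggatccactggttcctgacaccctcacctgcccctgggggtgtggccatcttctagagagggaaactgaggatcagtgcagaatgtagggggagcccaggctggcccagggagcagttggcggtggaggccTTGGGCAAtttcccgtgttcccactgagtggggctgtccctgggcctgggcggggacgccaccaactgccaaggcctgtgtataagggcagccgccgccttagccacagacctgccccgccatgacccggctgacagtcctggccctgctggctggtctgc
PRTN3 (chr19:840749-841048, plus strand): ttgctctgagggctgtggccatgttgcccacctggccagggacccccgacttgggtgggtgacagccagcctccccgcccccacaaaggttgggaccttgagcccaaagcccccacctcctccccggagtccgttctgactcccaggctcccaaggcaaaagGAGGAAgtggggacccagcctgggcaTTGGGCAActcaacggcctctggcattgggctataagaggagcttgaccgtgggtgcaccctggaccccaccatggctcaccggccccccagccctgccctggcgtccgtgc
CFD (chr19:859414-859713, plus strand): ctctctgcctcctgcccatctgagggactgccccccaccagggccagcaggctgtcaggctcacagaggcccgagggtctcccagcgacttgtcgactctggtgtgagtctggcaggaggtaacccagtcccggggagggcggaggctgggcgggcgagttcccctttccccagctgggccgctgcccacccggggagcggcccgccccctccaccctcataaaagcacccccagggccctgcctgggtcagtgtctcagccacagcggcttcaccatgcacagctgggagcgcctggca
CTSG (chr14:24576201-24576500, minus strand): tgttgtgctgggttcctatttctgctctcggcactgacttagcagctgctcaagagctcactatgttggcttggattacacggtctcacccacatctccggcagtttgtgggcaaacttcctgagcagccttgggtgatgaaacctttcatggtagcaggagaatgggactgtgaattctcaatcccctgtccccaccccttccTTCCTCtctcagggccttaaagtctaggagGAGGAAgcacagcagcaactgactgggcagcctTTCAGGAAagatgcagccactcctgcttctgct
The core TTNNGNAA was found in 4 of the 6 promoters (AZU1, PRTN3, CTSG and RNASE2), and 36.8% of all 35116 promoters of this length hold it. AZU1 and PRTN3 both hold it as TTGGGCAA, which begins 111 bases before the start of AZU1 and 62 bases before that of PRTN3. GAGGAA was found in 2 of the 6 promoters (PRTN3 and CTSG), beside 27.9% of all promoters, and begins 88 bases before the start of PRTN3. The CFD promoter held neither core. TATAAA (11.5% of all promoters), TGTGGT of RUNX factors (13.1%), TAACNG of MYB (20.8%) and the E-box CACGTG (7.26%) were in none of the 6, and none of the marked matches overlap. These letter matches describe the sequences and do not show binding. The RefSeq starts of AZU1, CFD and SERPINB1 lie inside the longer GENCODE genes.

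The deposited values are TPM, read density over gene length scaled to a common total, so levels can be set side by side between genes. The depth of the libraries is unknown, since TPM keep no read numbers. ANP32B itself stood at 358 and 364 TPM in NC and at 54.1 and 49.3 TPM after knockdown, 14.3% of the control mean. All 7 blast genes checked (CD33, FLT3, PTPRC, SPI1, MEIS1, HOXA9 and ANPEP) were listed, of which 3 rose, 1 fell and 3 were not called. ANPEP (CD13) rose from 47.3 and 48.8 TPM to 136 and 132 TPM (log2 fold change 1.46), PTPRC (CD45) rose from 62.3 and 64.1 TPM to 142 and 141 TPM (1.15), SPI1 was just past the fold limit (0.51), and MEIS1 fell from 44.2 and 47.9 TPM to 30.2 and 29.6 TPM (-0.61, adjusted p = 0.00138 from limma). Their part in the results on granule genes was not tested. Of 16 markers of T cells, B cells, erythroid cells and platelets, 4 were listed, with summed levels of 8.43 and 8.51 TPM in NC and 6.90 and 8.68 TPM in sh-ANP32B. Among these, CD2 of T cells rose from 0.521 and 0.442 TPM to 3.62 and 3.63 TPM. Its part in the results that follow was not tested. Differences were fitted with limma on log2(TPM + 1), and all log2 fold changes are sh-ANP32B minus NC on this scale. A gene was called where the adjusted p (Benjamini-Hochberg) was under 0.05 and the log2 fold change exceeded 0.5 in either direction.

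All 9 genes were higher in both sh-ANP32B libraries than in either NC library, but the size of the difference ran from 11.3-fold for LYZ to 1.17-fold for PRTN3. The share of all genes whose groups lay apart in this way was not computed, so the 9 cannot be set beside it. At the call limits, 6 of the 9 were called higher and 0 lower, and the count stayed at 5 to 7 higher and 0 lower under the alternatives run. Of all 16937 genes tested, 17.9% were called higher and 10.1% lower. The 9 log2 fold changes had a median of 1.29, beside 0.08 for all genes tested. Since the genes were chosen with this contrast in view, nothing is read from these counts. In bulk RNA, more cells that make these transcripts and more of each transcript per cell cannot be told apart.

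**Figure D1:**
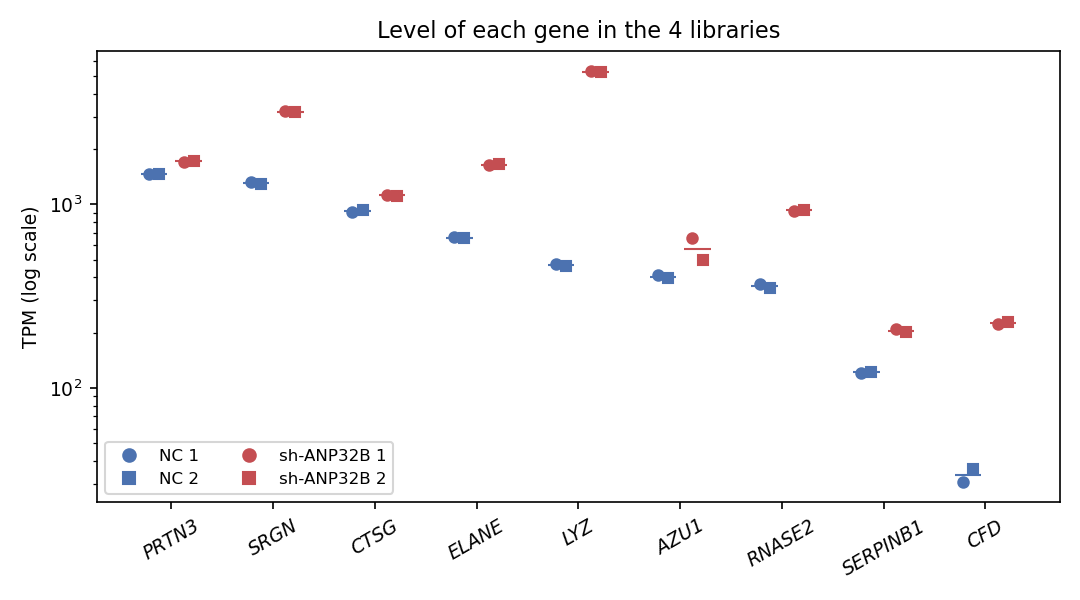
TPM of each of the 9 genes in the 4 libraries, on a log axis, ordered by the mean of the NC libraries. Circles and squares are replicates 1 and 2, blue is NC, red is sh-ANP32B and the short lines are group means. The groups do not overlap for any of the 9 genes, a trait whose share over all genes was not computed. The 2 sh-ANP32B libraries lie visibly apart for AZU1 alone.

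LYZ moved furthest. It had 471 and 464 TPM in NC and 5308 and 5260 TPM in sh-ANP32B, or 467 ± 4.998 TPM (mean ± SD, n = 2) and 5284 ± 34.0 TPM (mean ± SD, n = 2). The knockdown libraries stood 11.3-fold above the controls, and the replicates of each group lay close together. Its rank by level among all genes listed went from 234 in NC to 15 in sh-ANP32B. The log2 fold change of 3.50 (standard error 0.033) was exceeded by 10 of the genes tested, as LYZ stood at rank 11. The replicates differed by 0.022 on the log2 scale in NC and by 0.013 in sh-ANP32B. An antisense lncRNA, ENSG00000257764, shares 599 exonic bases with LYZ and was not analysed here. The sources do not say whether strand was kept, so reads of the pair cannot be told apart.

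CFD was the lowest of the 9 in NC, and its difference was exceeded among them by that of LYZ alone. It had 30.9 and 36.3 TPM in NC and 222 and 228 TPM in sh-ANP32B, 6.70-fold higher, with a log2 fold change of 2.71 (standard error 0.082). Its NC libraries differed by 0.228 on the log2 scale, the widest gap among the 9 genes within NC and far below the difference between the groups. CFD shares 255 exonic bases with MED16, a Mediator subunit on the opposite strand. MED16 had 61.4 and 59.4 TPM in NC and 62.7 and 59.9 TPM in sh-ANP32B (adjusted p = 0.793 from limma).

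The 4 azurophil serine protease genes differed among themselves in how far they were raised. ELANE, neutrophil elastase, had 666 and 652 TPM in NC and 1636 and 1656 TPM in sh-ANP32B, 2.50-fold higher, with a log2 fold change of 1.32 (standard error 0.033). PRTN3, proteinase 3, had 1466 and 1463 TPM against 1695 and 1732 TPM, 1.17-fold higher, with a log2 fold change of 0.23 (standard error 0.033). A row without a gene name, ENSG00000277804, had close values, 1544 and 1549 TPM in NC and 1796 and 1841 TPM in sh-ANP32B. Whether it is a further entry of PRTN3 was not tested. If so, the level of PRTN3 and the order, ratios and sums that use it would be incomplete. CTSG, cathepsin G, had 913 and 933 TPM against 1130 and 1116 TPM, 1.22-fold higher, with a log2 fold change of 0.28 (standard error 0.033). The PRTN3 and CTSG groups do not overlap, yet both log2 fold changes lie inside the middle range of all genes, which ran from -0.26 at percentile 25 to 0.45 at percentile 75. ELANE lay beyond it, with 3.22% of the genes tested above it.

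AZU1, azurocidin, a protease homologue without catalytic activity, was the least certain of the 9. It had 411 and 397 TPM in NC and 653 and 495 TPM in sh-ANP32B, or 404 ± 10.3 TPM (mean ± SD, n = 2) and 574 ± 112 TPM (mean ± SD, n = 2). Its sh-ANP32B libraries differed by 0.40 on the log2 scale, and of the 1634 genes averaging 100 TPM or more, 29 differed more between these libraries. The median gap of those genes was 0.046. The log2 fold change of AZU1 was 0.49 (standard error 0.125), just under the limit of 0.5. It was 0.29 without sh-ANP32B replicate 1 and 0.69 without sh-ANP32B replicate 2, so the size of its difference rests on which of these libraries is used.

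**Figure D2:**
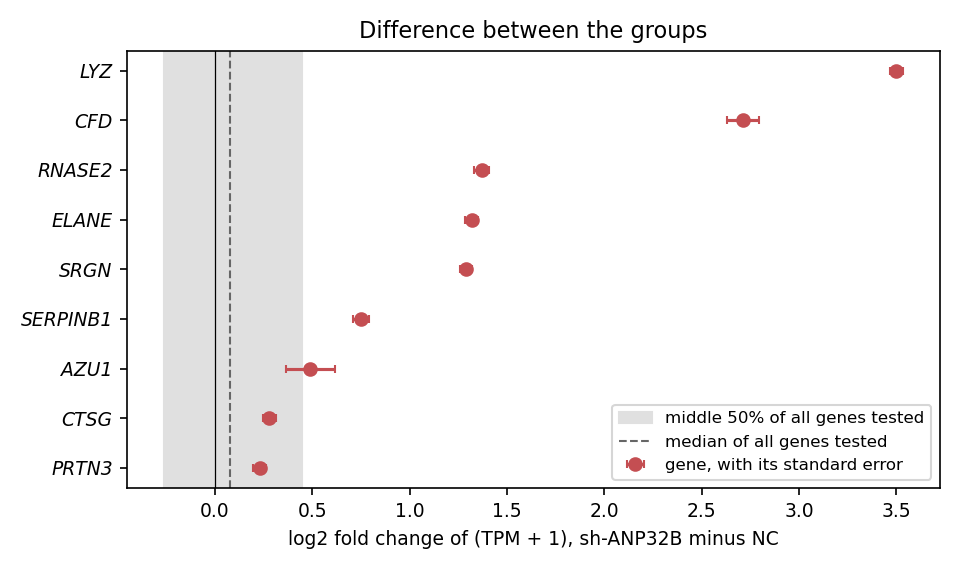
Log2 fold change of (TPM + 1) for each of the 9 genes, sh-ANP32B minus NC, with its standard error from limma (n = 2 and 2). The grey band is the middle 50% of all genes tested, from -0.26 to 0.45, and the dashed line their median of 0.08. PRTN3 and CTSG lie inside the band, and LYZ and CFD lie furthest from it.

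The transcripts of the proteins that store or restrain the proteases, and of the RNase, were also higher. SRGN, serglycin, had 1325 and 1294 TPM in NC and 3206 and 3203 TPM in sh-ANP32B, 2.45-fold higher, with a log2 fold change of 1.29 (standard error 0.033). RNASE2 had 367 and 348 TPM against 920 and 935 TPM, 2.59-fold higher, with a log2 fold change of 1.37 (standard error 0.040). SERPINB1 had 121 and 122 TPM against 209 and 202 TPM, 1.69-fold higher, with a log2 fold change of 0.75 (standard error 0.041). For these 3 genes the gap between the groups was many times the gap between replicates. SERPINB1 was thus raised more than PRTN3 and CTSG and less than ELANE, and its level was 0.0397 and 0.0400 of the summed level of ELANE, PRTN3 and CTSG in NC and 0.0468 and 0.0448 of it in sh-ANP32B. A misc_RNA gene lies within SRGN on the same strand and shares no exonic base with it.

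The order of the levels differed between the groups. In NC it ran PRTN3, SRGN, CTSG, ELANE, LYZ, AZU1, RNASE2, SERPINB1 and CFD, from 1464 to 33.6 TPM in mean. In sh-ANP32B it ran LYZ, SRGN, PRTN3, ELANE, CTSG, RNASE2, AZU1, CFD and SERPINB1, from 5284 to 205 TPM. The libraries of neighbours in each order did not overlap, although PRTN3 and ELANE came close in sh-ANP32B. ELANE had 0.455 and 0.445 of the level of PRTN3 in NC and 0.965 and 0.956 of it in sh-ANP32B. In sh-ANP32B, 5 of the 9 genes had a mean above 1000 TPM, against 2 in NC.

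The 9 genes together held 5771 and 5708 TPM in NC and 14977 and 14826 TPM in sh-ANP32B. This was 0.578% and 0.572% of the listed total in NC and 1.501% and 1.49% in sh-ANP32B. LYZ made up 8.15% and 8.12% of the sum in NC and 35.4% and 35.5% in sh-ANP32B, whereas SRGN kept a share between 21.4% and 23.0%. Without LYZ, the sum was 5301 and 5245 TPM against 9669 and 9566 TPM. The larger sum in the knockdown libraries therefore came from LYZ and SRGN most of all, with differences of 4817 and 1895 TPM between the group means, followed by 987 TPM for ELANE.

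**Figure D3:**
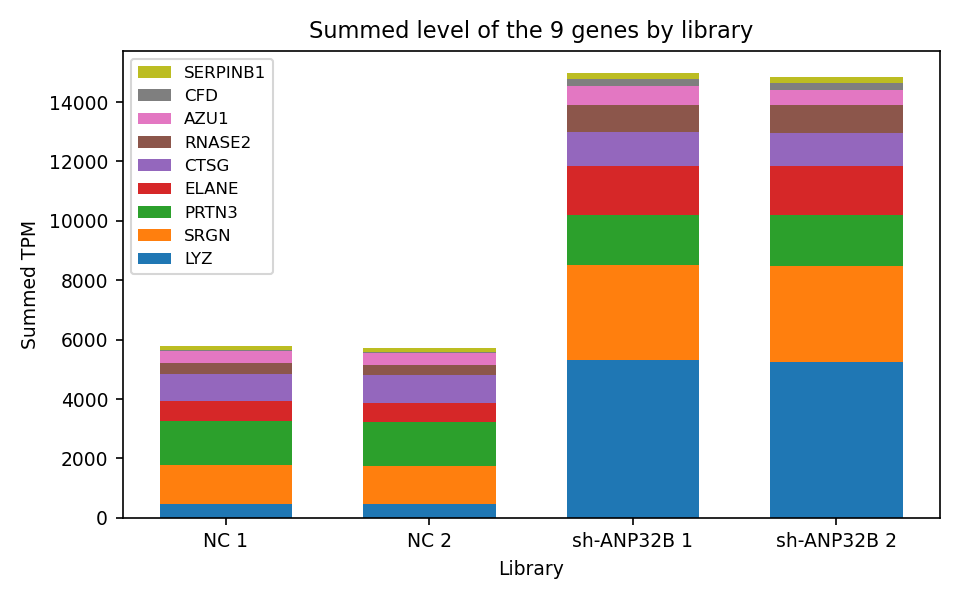
TPM of the 9 genes stacked for each library, on an axis that starts at 0. The sums are 5771 and 5708 TPM in NC and 14977 and 14826 TPM in sh-ANP32B, and the lowest segment, LYZ, accounts for most of the gain.

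Most genes around the chromosome 19 locus were not called. From PRSS57, which lies outside the 100 kb window on the AZU1 side, to 100 kb beyond CFD, 7 other genes were tested, of which 1 rose, 2 fell and 4 were not called, with a median log2 fold change of 0.02. Over all genes tested 17.9% were called higher and 10.1% lower, so nothing is read from these counts. The gene that rose was PRSS57 itself, and within 100 kb no other gene of the locus was called higher. PRSS57, which encodes the related neutrophil serine protease NSP4, had 4.04 and 3.19 TPM in NC and 13.4 and 11.5 TPM in sh-ANP32B (log2 fold change 1.55, standard error 0.158, adjusted p = 0.00103 from limma). PTBP1, a splicing regulator 12770 bases from AZU1, fell, with 494 and 508 TPM against 335 and 328 TPM (log2 fold change -0.59, adjusted p = 2.32e-04 from limma). PALM, with 5.42 and 5.56 TPM against 3.802 and 2.91 TPM, was called lower (log2 fold change -0.58, adjusted p = 0.0384 from limma), and the call was lost without NC replicate 1, NC replicate 2 or sh-ANP32B replicate 2 (adjusted p = 0.114, 0.127 and 0.141 from limma). PLPPR3 had a log2 fold change of 0.47, MED16 0.02, R3HDM4 -0.19 and ARID3A 0.11, and none of these was called. Within the locus, the difference was smallest at PRTN3 and largest at CFD, whose start lies 11278 bases beyond the end of PRTN3.

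**Figure D4:**
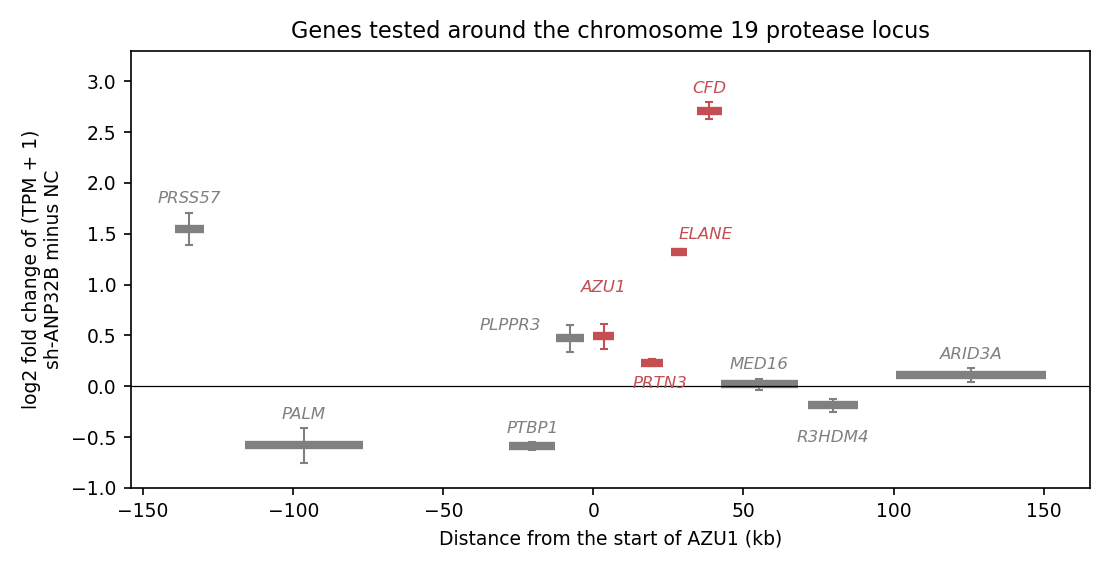
Log2 fold change of (TPM + 1), sh-ANP32B minus NC, for the 11 genes tested around the protease locus, against distance from the start of AZU1 in kb. Thick bars span each gene, thin bars are standard errors, red marks AZU1, PRTN3, ELANE and CFD, and grey marks the others, of which PRSS57 alone was called higher.

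Around all 10 loci, including that of MPO, 76 other genes are annotated within 100 kb, and 22 of them were tested. Of these, 3 rose, 2 fell and 17 were not called, with a median log2 fold change of -0.06. A share of 17.9% of all genes was called higher. Those that rose near RNASE2 were its paralog RNASE3 (eosinophil cationic protein), with 168 and 165 TPM against 242 and 261 TPM (log2 fold change 0.59, adjusted p = 5.12e-04 from limma), and RNASE2CP, annotated as a lncRNA, with 21.0 and 22.1 TPM against 50.02 and 49.2 TPM (log2 fold change 1.17, adjusted p = 1.92e-04 from limma). These copies are alike in sequence, so reads could have been split between them and RNASE2, and their values are uncertain. The gene that rose at the SRGN locus was the misc_RNA within it, ENSG00000274008 (Metazoa_SRP), with 0.824 and 2.66 TPM against 7.50 and 6.09 TPM (adjusted p = 0.0148 from limma), and it was not called without sh-ANP32B replicate 1 (adjusted p = 0.0534 from limma). YEATS4, 5476 bases from LYZ, had 40.4 and 41.9 TPM against 29.8 and 28.1 TPM and was not called, at a log2 fold change of -0.49. It was called lower under 5 of the 11 alternatives.

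Other granule genes and their partners were taken from 12 lists of 109 genes, of which 62 were tested. Of these, 26 rose, 2 fell and 34 were not called, and their median log2 fold change was 0.40, beside 0.08 for all genes. The shares of all genes tested were 17.9% higher and 10.1% lower. The lists were chosen with earlier results of these data known. Among the genes that rose, BPI, FCN1, CEACAM8, CR1, RNASE4 and RNASE6 did not reach 1 TPM in both NC libraries. They passed the limit for testing only through sh-ANP32B, so nothing is read from these counts. The other azurophil genes gave 3 higher of 4 tested, namely PRSS57, CD63 and BPI. CD63, a granule membrane tetraspanin, had 193 and 211 TPM in NC and 421 and 404 TPM in sh-ANP32B (log2 fold change 1.03, adjusted p = 1.74e-04 from limma). BPI, which binds bacterial endotoxin, was near the lower limit with 0.292 and 1.02 TPM against 3.81 and 2.26 TPM (adjusted p = 0.0230 from limma), and it was not called without NC replicate 1 or sh-ANP32B replicate 1 (adjusted p = 0.0840 and 0.0907 from limma). CTSC, the peptidase that activates ELANE, PRTN3 and CTSG by removing a dipeptide, had 211 and 218 TPM against 226 and 212 TPM (adjusted p = 0.651 from limma) and the groups overlapped. The defensin genes DEFA1, DEFA1B, DEFA3 and DEFA4 were not analysed here.

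Of the genes of later granules, 4 of the 5 tested rose, all from low levels except MMP25. FCN1, CEACAM8 and PGLYRP1 were under 1 TPM in both NC libraries and passed the limit for testing only through sh-ANP32B. Of all genes tested, 17.9% were called higher, and nothing is read from the 4 of 5. CAMP, the precursor of the peptide LL-37 of specific granules, had 1.05 and 1.19 TPM in NC and 10.8 and 13.7 TPM in sh-ANP32B (log2 fold change 2.64, adjusted p = 2.89e-04 from limma). FCN1, a ficolin of the lectin pathway made by monocytes, had 0.849 and 0.831 TPM against 6.22 and 5.39 TPM (log2 fold change 1.88, adjusted p = 8.23e-04 from limma). MMP25, a membrane metalloproteinase, had 23.2 and 25.3 TPM against 41.8 and 43.6 TPM (log2 fold change 0.79, adjusted p = 7.12e-04 from limma). CEACAM8 had 0.663 and 0.921 TPM against 2.22 and 1.72 TPM (adjusted p = 0.0449 from limma) and was not called without any 1 of the 4 libraries, with an adjusted p of up to 0.175 from limma. PGLYRP1 was not called, with 0.770 and 0.980 TPM against 1.36 and 3.55 TPM. It was called higher without sh-ANP32B replicate 1. LTF, LCN2, MMP8, MMP9 and the other genes of this list were not analysed here.

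Granule genes of other lineages were few. Of the mast cell and basophil list, the tryptases TPSAB1 and TPSB2 rose, with 643 and 653 TPM against 1270 and 1290 TPM for TPSAB1 (log2 fold change 0.98, adjusted p = 7.08e-05 from limma) and 159 and 162 TPM against 340 and 340 TPM for TPSB2. Tryptase genes are nearly identical, so the division between them is uncertain. MS4A2, the beta chain of the IgE receptor that marks these cells, was not called and had 3.201 and 4.02 TPM against 2.48 and 1.68 TPM, and CPA3, HDC and CMA1 were not analysed here. From the eosinophil list RNASE3 alone was tested, and from the cytotoxic list NKG7 alone, with 74.3 and 76.0 TPM against 63.1 and 58.3 TPM (log2 fold change -0.30, inside the fold limit).

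**Figure D5:**
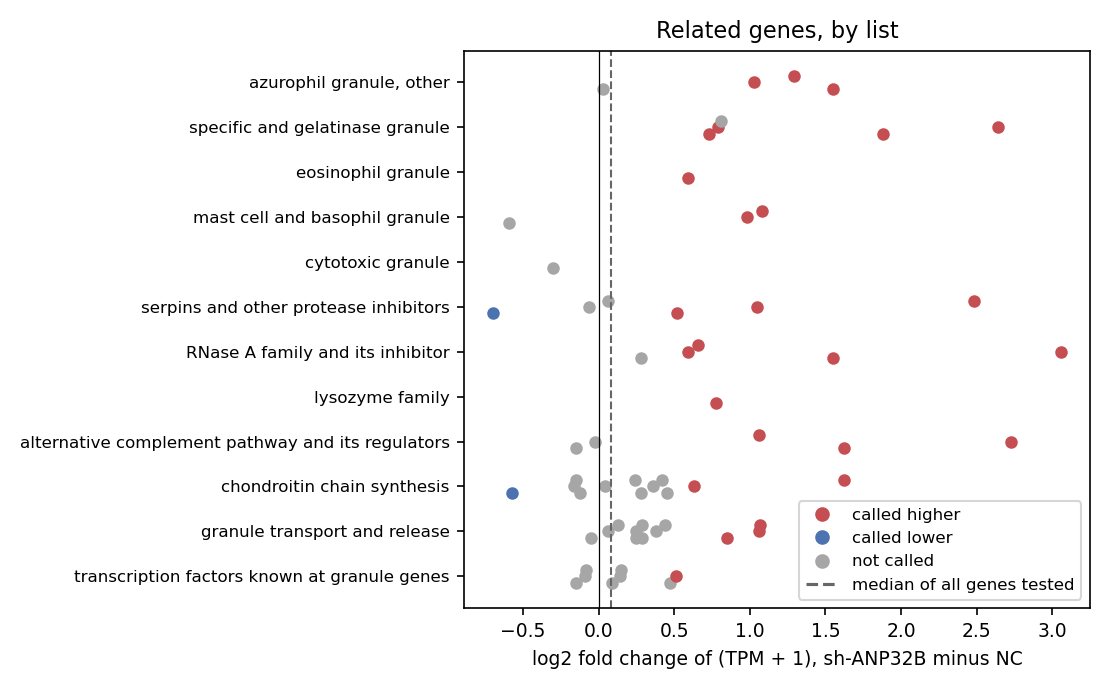
Log2 fold change of (TPM + 1), sh-ANP32B minus NC, of the genes tested in each of 12 lists, 1 point a gene, spread vertically only to separate points. Red points were called higher, blue lower and grey neither, and the dashed line is the median of all genes tested, 0.08. Red points outnumber blue by 26 to 2 over the 62 different genes, with RNASE3 shown in both its lists. Some of the red points passed the limit for testing only through sh-ANP32B, and the lists were chosen with earlier results known. Nothing is read from this count.

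Transcripts of inhibitors and partners of the 9 gene products gave a mixed picture. Of 6 inhibitors tested, 3 rose, 1 fell and 2 were not called. SERPINA1 (alpha-1-antitrypsin), the main plasma inhibitor of elastase, had 4.49 and 3.66 TPM against 27.1 and 27.5 TPM (log2 fold change 2.48, adjusted p = 1.48e-04 from limma). SERPINB2 (plasminogen activator inhibitor type 2) had 114 and 109 TPM against 230 and 233 TPM (log2 fold change 1.05, adjusted p = 9.69e-05 from limma). SERPINB6, which also inhibits cathepsin G, was not called, with 97.0 and 98.0 TPM against 92.1 and 94.6 TPM. SERPINB8 stood at the fold limit, with a log2 fold change of 0.52 that was 0.44 without NC replicate 2 and 0.49 without sh-ANP32B replicate 1. SERPINB10, with 3.14 and 2.70 TPM against 1.36 and 1.45 TPM, was called lower (adjusted p = 0.0292 from limma), a call lost without any 1 of the 4 libraries (adjusted p from 0.0752 to 0.148 in limma). SLPI was not called.

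In the RNase A family, RNASE6 had 1.20 and 0.930 TPM against 17.2 and 15.3 TPM (log2 fold change 3.06, adjusted p = 1.64e-04 from limma), and RNASE4 had 1.35 and 0.931 TPM against 6.19 and 4.39 TPM (log2 fold change 1.55, adjusted p = 0.00368 from limma). RNH1, the cytosolic inhibitor of this family, rose with them, from 164 and 161 TPM to 252 and 265 TPM (log2 fold change 0.66, adjusted p = 2.59e-04 from limma). ANG was not called. LYG1, a goose-type lysozyme, rose from 4.11 and 4.15 TPM to 7.21 and 8.48 TPM (log2 fold change 0.78, adjusted p = 0.00840 from limma), far below the level of LYZ.

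In the pathway of factor D, 3 of 5 genes tested rose, of which CR1 passed the limit for testing only through sh-ANP32B. CFP, properdin, which stabilises the alternative convertase, had 4.75 and 5.01 TPM in NC and 32.5 and 44.6 TPM in sh-ANP32B (log2 fold change 2.73, adjusted p = 2.16e-04 from limma). C3, the central component, had 1.70 and 1.82 TPM against 4.85 and 4.67 TPM (log2 fold change 1.06), and CR1, a receptor of its fragments, had 0.588 and 0.570 TPM against 4.88 and 3.01 TPM (log2 fold change 1.62). The regulators CD46 and CD55 were not called, with log2 fold changes of -0.02 and -0.15. CFB, the substrate of factor D, was not analysed here.

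Genes for the sugar chains of serglycin and for granule release were called higher at shares near the 17.9% of all genes. Of 12 chondroitin synthesis genes, 2 rose (the chain polymerising factor CHPF2, from 27.9 and 24.3 TPM to 82.8 and 81.4 TPM, and the linker enzyme B4GALT7, from 21.4 and 21.5 TPM to 33.6 and 33.8 TPM), 1 fell and 9 were not called. The one that fell was CHST11, a chondroitin sulfotransferase, from 49.5 and 47.0 TPM to 33.4 and 31.0 TPM (log2 fold change -0.57, adjusted p = 0.00172 from limma). Those not called at 50 TPM or more were CSGALNACT2, CHST12, CHSY1 and B3GALT6, with log2 fold changes of 0.45, 0.28, -0.12 and -0.16. Of 12 genes of granule transport and release, 3 rose and 9 were not called. UNC13D (Munc13-4), which primes granules, rose from 62.4 and 68.8 TPM to 139 and 139 TPM (log2 fold change 1.07, adjusted p = 1.91e-04 from limma), and STXBP2 (Munc18-2) rose from 240 and 224 TPM to 475 and 498 TPM (log2 fold change 1.06, adjusted p = 1.33e-04 from limma). STX11, a syntaxin, rose from 9.50 and 8.70 TPM to 16.9 and 17.5 TPM, while RAB27A was not called, at a log2 fold change of 0.25, and VAMP8 had 253 and 256 TPM against 266 and 265 TPM. SNAP23, LYST, SYTL1 and AP3D1, of granule fusion and biogenesis, were not called either, with log2 fold changes of 0.38, 0.29, 0.29 and 0.25.

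Transcription factors known to bind granule genes were mostly not called. Of 8 tested, SPI1 (PU.1) was called higher, and 7 were not called. SPI1 had 250 and 257 TPM in NC and 361 and 361 TPM in sh-ANP32B (log2 fold change 0.51, adjusted p = 3.35e-04 from limma), and its log2 fold change was 0.49 without NC replicate 1 and 0.42 with median-of-ratios scaling, inside the fold limit. CEBPA, the main C/EBP factor of granulocyte commitment, had 407 and 413 TPM against 438 and 434 TPM (log2 fold change 0.09, adjusted p = 0.0822 from limma). CEBPB had a log2 fold change of 0.47, CEBPE 0.15, GFI1 -0.09, MYB -0.08, RUNX1 0.14 and CBFB -0.15, and none of these was called. SPI1 and CEBPB lay above percentile 75 of all genes tested (0.45), and the other factors lay below it.

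The genes most like LYZ over the 4 libraries, by the summed absolute difference of centred log2 values over the 3627 genes averaging 50 TPM or more, were TYROBP (distance 0.270), RN7SL2 (1.27) and CFD (1.57). TYROBP had 40.5 and 35.8 TPM in NC and 396 and 415 TPM in sh-ANP32B. Those most like PRTN3, the gene with the smallest difference, were ENSG00000277804 (distance 0.0136), LITAF (0.0203) and SREK1 (0.0277). ENSG00000277804 had no gene name and a level close to that of PRTN3. Whether it is a further entry of PRTN3 and not another gene was not tested. With 4 libraries in 2 groups, this likeness mainly states the size of the difference between the groups.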

How the data were processed

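RNA of 2 NC and 2 sh-ANP32B libraries of MV4-11 cells was sequenced at Novogene. The submitters' processing notes name HISAT2 (version 2.0.5) and hg38, and the authors deposited 1 TPM value per gene and library. The unit was read from the values, which sum to between 997271 and 998546 in each library. The counting tool, annotation and strand setting are not given in the sources used here. The lowest mean among the genes listed is 0.500 TPM.

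Of the 18885 gene identifiers, 17290 had a symbol in GENCODE version 44 (hg38). The study used a count model, which TPM do not allow, so limma (version 3.58.1 in R 4.3.3; lmFit, eBayes with trend) was fitted to log2(TPM + 1) of all 16937 genes at 1 TPM or more in 2 or more libraries, with Benjamini-Hochberg adjustment over all of them. The script was tested on simulated data. Python 3.11.15 was used for tables and plots. With 2 libraries a group, each p leans on variance that limma borrows from other genes.

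The 10 genes and all lists were chosen with earlier results of these data known, and promoter motifs after the TPM were seen. The genes named are the 10, up to 4 called genes with the largest differences and genes at or above 50 TPM of each list, and genes tested near the chromosome 19 locus. YEATS4, RNASE2CP, Metazoa_SRP and further list genes not called or at low levels were named after their values were seen. The values of 1 other marker gene are not reported here. The alternatives were the replicate block, a pseudocount of 0.1, no filter, quantile normalization, median-of-ratios scaling, unadjusted p, a fold limit of 1 and each library left out in turn.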

Additional observations from a re-analysis of the deposited data

How the results depend on the processing

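The log2 fold changes of all 9 genes were above 0 under each of the 9 refits, from 3.40 to 3.51 for LYZ, 2.60 to 2.83 for CFD and 0.14 to 0.43 for PRTN3, and their median was 1.21 with median-of-ratios scaling and 1.42 with quantile normalization, against 1.29. These scalings moved the median of all genes from 0.08 to 0.01 and -0.04, and the share of lower genes among the calls from 36.1% to 47.1% and 50.2%. A fold limit of 1 left 1136 genes higher and 273 lower of 3024 and 1712. It left 5 of the 9 genes higher, 16 list genes higher and 0 lower (26 and 2 in the report), and 0 genes near the loci lower. Same-numbered libraries had deviations with a correlation of -0.0232 over the genes tested. A single value over all genes cannot exclude a shared batch that moves some of them, so pairing stays unknown. The replicate block left 1 list gene lower (CHST11) and 1 gene near the loci lower (PTBP1). It ended the calls of SERPINB10, PALM and CEACAM8 (adjusted p = 0.0516, 0.0591 and 0.0731 from limma) and changed no other call among the genes of the report. With 1 library left out in turn, 2357 to 2677 genes were higher and 1517 to 1680 lower, 1 list gene was lower each time, and 1 to 3 genes near the loci were lower. In these refits the lone library of a group is assumed to vary like the other group. TPM carry no depth, so counting error is unknown and low genes such as BPI and CEACAM8 are the least certain.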
